A study of Rattus norvegicus with 2 samples.

Results

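The genes of the Wnt pathway, from ligands and receptors to the beta-catenin destruction complex, the TCF and LEF transcription factors and the feedback inhibitors, were compared between small molecule treated and undifferentiated rat C6 glioma cells. Members were the probe sets with a single gene symbol that names a Wnt, Fzd, Dkk, Sfrp, Dvl or Rspo gene or one of a fixed set of further pathway genes, 64 genes with 1 probe set each out of 18166 genes with a single symbol. The only symbol of that set without such a probe set was Znrf3, which was not analysed here. C6 is an established line from a rat glioma. The study asked whether small molecules turn glioma cells into cells that resemble benign glia. There were 2 arrays, 1 of treated cells (labelled SMiG) and 1 of undifferentiated cells (C6), both grown in DMEM with serum. The labels disagree on the treatment. The SMiG sample itself is labelled with forskolin, which activates adenylyl cyclase, with rapamycin, which inhibits mTORC1, and with I-BET151, which keeps BET proteins off acetylated chromatin. A protocol text attached to both arrays, the C6 array included, gives 20 µM CHIR99021 and 100 µM forskolin for 35 days. CHIR99021 inhibits GSK3, so the labels leave it unsettled whether a direct inhibitor of the Wnt pathway's own kinase was present, and no choice between them was made. Each group has a single array, so no spread between replicates is known, no test between the groups is possible, and each value below describes these 2 arrays.

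Wnt proteins are secreted, lipid-modified ligands that bind Frizzled receptors together with the co-receptors LRP5 and LRP6. Without ligand, a complex of APC, Axin, casein kinase and GSK3 marks beta-catenin for degradation. With ligand the complex is held at the membrane, and beta-catenin collects and acts in the nucleus with TCF and LEF factors. Several of the genes switched on in this way, Axin2, Notum, Rnf43 and the Naked genes among them, encode inhibitors of the pathway, so that they serve both as restraint and as readout. In the mouse central nervous system the pathway is known for its part in the timing of oligodendrocyte maturation, where Tcf7l2 is found.

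Most members past 2-fold were feedback genes or TCF and LEF genes. The feedback genes Nkd2 and Axin2 and the factor genes Lef1 and Tcf7 were lower in SMiG, and the factor gene Tcf7l2 was higher. Not all feedback genes were lower, as Nkd1 had the same value on both arrays. The lowest and highest measured log2 differences of detected members lay outside these groups, in the antagonist gene Sfrp4 at −3.34 and the receptor gene Fzd8 at 1.42. In SMiG, Sfrp4 was below the detection floor given below. Its supported difference is at least 5.89-fold, less than the 6.13-fold of Nkd2. The ligands and the genes grouped as destruction complex and beta-catenin stayed within 2-fold, as did 9871 of all 10932 detected genes. A gene counted as detected when either array exceeded its floor, which was the 95th percentile of 1343 olfactory and vomeronasal receptor genes, which are taken as silent. The floor was 4.96 in SMiG and 4.84 in C6 on the log2 scale, and 45 of the 64 genes were detected, as were 10932 of all 18166. Of the 45, 6 were at least 2-fold lower in SMiG, beside 6.51% of all detected genes, and 2 were at least 2-fold higher, beside 3.19% of all detected genes. The lower genes were the secreted antagonist gene Sfrp4, the feedback genes Nkd2, Notum and Axin2, and the transcription factor genes Lef1 and Tcf7. The higher genes were the receptor gene Fzd8 and the transcription factor gene Tcf7l2. Log2 differences are SMiG minus C6 in all cases, and their median over the 45 genes was 0.09, against −0.0052 over all detected genes. The median thus lay close to that of all genes, and the large differences sat in a few genes. Detection through a single array favours a difference toward that array. Among the 41 genes above the floor on both arrays, 2-fold was reached by 4 lower genes and 2 higher genes, beside 5.34% and 3.2% of the 10061 genes of that kind. Just inside the threshold were Tcf7 at −1.17 and Tcf7l2 at 1.12, and just outside it were Fzd2 at −0.85 and Wls at 0.89. The silent receptor genes had an SD of 0.32 in their log2 difference and 0.745% of them passed 2-fold, which gives the noise between the arrays near the floor but nothing of the variation between cultures.

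**Figure D1:**
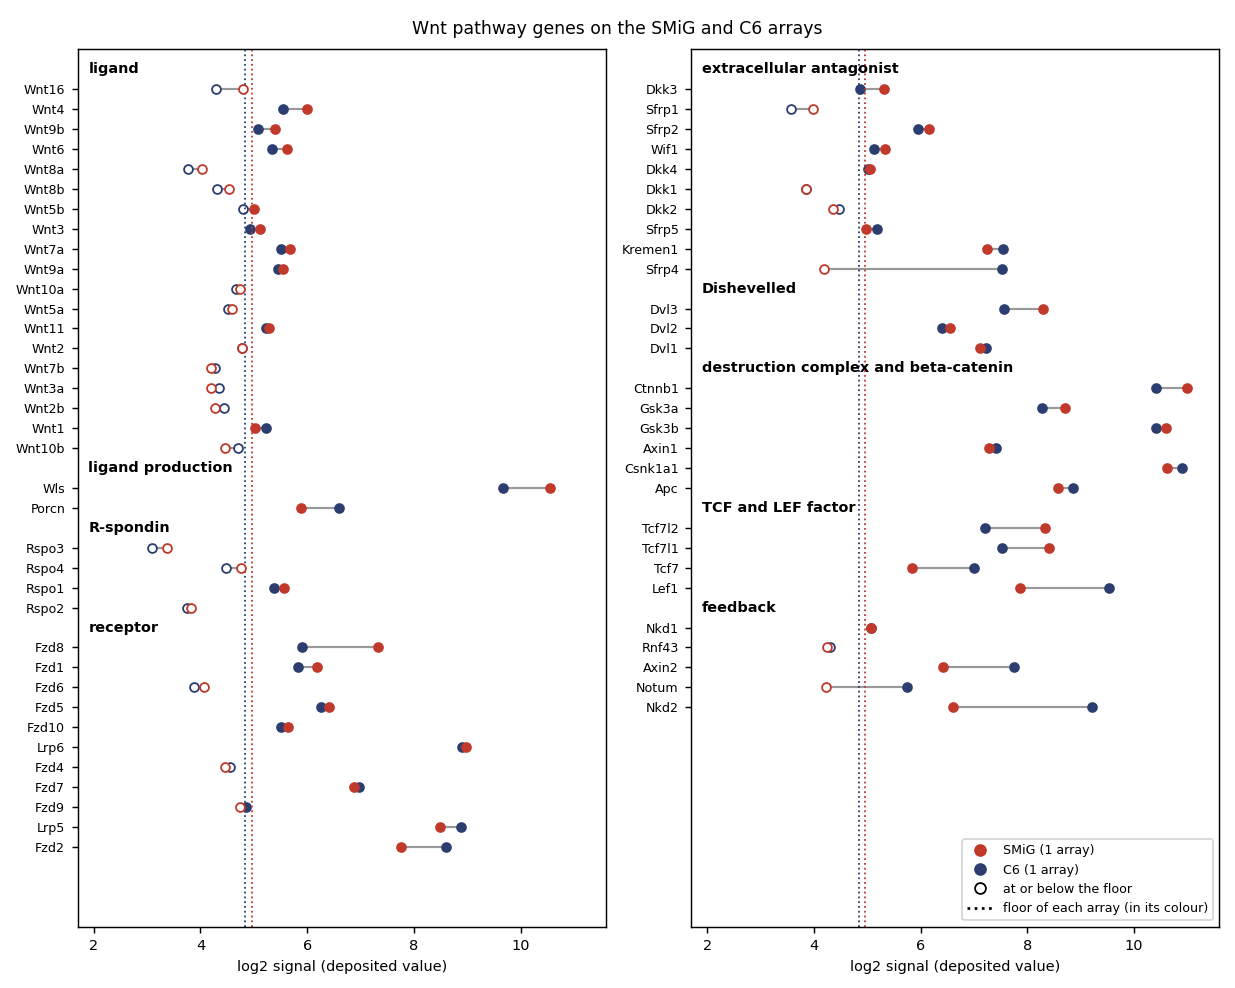
Log2 signal of each of the 64 Wnt pathway genes on the SMiG array (red) and the C6 array (blue), grouped by role, with open circles at or below the floor and dotted lines at the floors of 4.96 (SMiG) and 4.84 (C6). The long lines are those of Sfrp4, Nkd2, Lef1, Notum, Axin2, Tcf7, Tcf7l2 and Fzd8, while the ligands lie near the floors on both arrays.

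Of the 5 feedback genes, Nkd2 and Axin2 were lower in SMiG by more than 2-fold with both signals above the floor. Nkd2, encoding Naked cuticle homolog 2, which binds Dishevelled and dampens the signal, had 6.60 in SMiG against 9.22 in C6, a 6.13-fold lower signal. This was the lowest difference among members above the floor on both arrays, and 0.521% of all detected genes had a lower one. Axin2, encoding a scaffold of the destruction complex and widely used as a readout of beta-catenin activity, had 6.41 in SMiG against 7.76 in C6, 2.54-fold lower. Both genes stayed well above the floor in SMiG. Notum, encoding a secreted enzyme that removes the lipid from Wnt proteins, had 4.23 in SMiG against 5.75 in C6. Its SMiG value is below the floor, so the supported difference is at least 1.73-fold, short of the 2-fold mark. Nkd1, the paralog of Nkd2, had 5.07 on both arrays, close to the floor. Rnf43, encoding a ubiquitin ligase that removes Frizzled receptors from the cell surface, was below the floor on both, at 4.25 in SMiG and 4.30 in C6. The feedback group thus held 3 genes past 2-fold on measured values, all lower, out of 4 detected, beside 6.51% of all detected genes. With Notum at its bound, 2 of the 5 genes were past it.

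The 4 TCF and LEF genes split by member. These proteins bind the same DNA core and carry beta-catenin to it. Lef1, which in most settings acts as an activator, had 7.87 in SMiG against 9.53 in C6, 3.16-fold lower. Tcf7 had 5.84 in SMiG against 7.002 in C6, 2.25-fold lower. Tcf7l2 had 8.32 in SMiG against 7.20 in C6, 2.18-fold higher. Tcf7l1, which in mouse embryonic stem cells acts mainly as a repressor, had 8.40 in SMiG against 7.52 in C6, 1.84-fold higher and within the 2-fold mark. The differences therefore ran in opposite directions within a family of 4, from −1.66 for Lef1 to 1.12 for Tcf7l2. Lower differences than that of Lef1 were found in 2.21% of detected genes, and higher ones than that of Tcf7l2 in 2.32%. Each gene is represented by 1 probe set, which does not separate isoforms with and without the beta-catenin binding end.

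**Figure D2:**
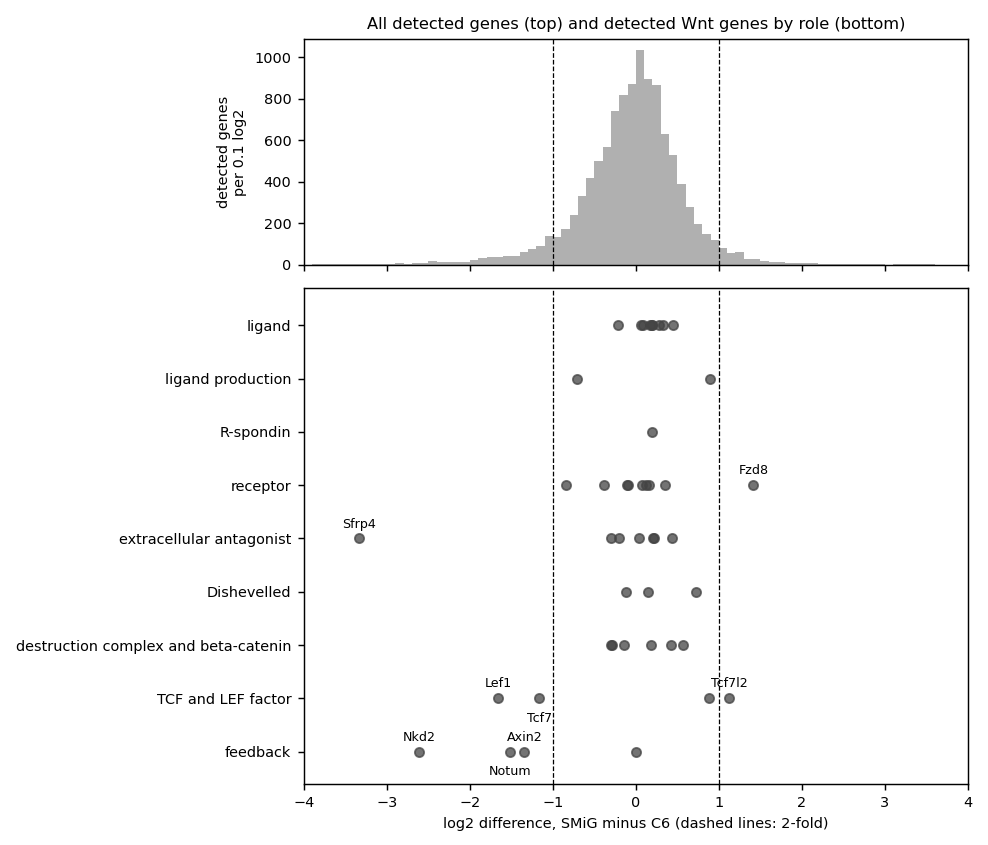
Log2 difference, SMiG minus C6, as a histogram of all 10932 detected genes (top) and as points for the 45 detected Wnt pathway genes by role (bottom), with dashed lines at 2-fold. Sfrp4 and Notum are plotted at their measured values although both were below the floor in SMiG. The ligands and the destruction complex lie inside the dashed lines, as do 9871 of the 10932 genes.

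The upstream sequences of 4 of these genes are given as examples. Axin2 and Nkd2 are the feedback genes lower in SMiG with an upstream window in the RefSeq table used, and Lef1 and Tcf7l2 are the TCF and LEF genes at the opposite ends. Shown are the 250 bases before the RefSeq transcription start on the GRCr8 build, 5′ to 3′ on the gene's strand, here the plus strand for each. Axin2 lies at chr10:94398535-94398784, Nkd2 at chr1:31272282-31272531, Lef1 at chr2:222340463-222340712 and Tcf7l2 at chr1:264791085-264791334. The word searched, on both strands and shown in capitals, was CTTTG followed by 2 further bases that are each A or T, a form of the core bound by TCF and LEF proteins.
Axin2: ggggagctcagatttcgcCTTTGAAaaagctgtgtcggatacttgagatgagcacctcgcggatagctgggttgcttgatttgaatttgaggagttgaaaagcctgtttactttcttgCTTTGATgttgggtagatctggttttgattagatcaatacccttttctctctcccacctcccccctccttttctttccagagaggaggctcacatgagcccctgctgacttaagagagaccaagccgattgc
Nkd2: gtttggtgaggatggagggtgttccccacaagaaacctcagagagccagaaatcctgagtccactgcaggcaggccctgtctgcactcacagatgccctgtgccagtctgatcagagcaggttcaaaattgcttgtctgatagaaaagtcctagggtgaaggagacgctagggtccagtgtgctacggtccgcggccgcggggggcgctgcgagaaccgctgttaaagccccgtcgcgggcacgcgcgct
Lef1: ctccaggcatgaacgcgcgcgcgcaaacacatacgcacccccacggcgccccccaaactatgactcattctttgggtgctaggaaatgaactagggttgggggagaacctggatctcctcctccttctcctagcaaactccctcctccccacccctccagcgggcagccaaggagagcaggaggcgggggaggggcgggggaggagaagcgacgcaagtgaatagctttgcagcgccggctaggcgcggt
Tcf7l2: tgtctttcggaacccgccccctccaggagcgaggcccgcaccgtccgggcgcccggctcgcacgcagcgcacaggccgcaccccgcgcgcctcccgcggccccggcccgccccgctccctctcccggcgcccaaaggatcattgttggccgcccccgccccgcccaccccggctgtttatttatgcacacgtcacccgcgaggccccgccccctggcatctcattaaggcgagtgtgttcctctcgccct
The Axin2 sequence holds 2 such words, CTTTGAA at 232 to 226 bases before the start and CTTTGAT at 132 to 126 bases before it. The other 3 hold none, nor do the windows of Tcf7 and Fzd8, so 1 of the 6 genes past 2-fold with a window has a match. A match was found in 14.9% of all 33469 RefSeq windows of this length and in 6 of the 48 windows of member genes (12.5%), where Wls has several starts. The cyclic AMP response element TGACGTCA, a palindrome, was in none of the 48 windows and in 1.59% of all windows. A match is a description of the letters and not a binding site. Sites further from the start lie outside these windows. Of the 64 genes, 47 had a window in that table, and Sfrp4 and Notum were among the other 17.

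Among the secreted antagonists, Sfrp4 was lower in SMiG, and its measured difference was the lowest of the 64 genes. Sfrp4, encoding a secreted Frizzled-related protein that binds Wnt ligands outside the cell, had 4.18 in SMiG against 7.52 in C6. The SMiG value is below the floor, which makes the supported difference at least 5.89-fold, less than the 6.13-fold of Nkd2, and 0.238% of detected genes had a lower measured difference. No other antagonist among the members passed 2-fold. Kremen1, encoding a receptor for Dickkopf proteins, had 7.24 in SMiG against 7.54 in C6. Sfrp2, a paralog of Sfrp4, had 6.16 in SMiG against 5.94 in C6. Dkk3, a divergent Dickkopf gene, had 5.31 in SMiG against 4.87 in C6, close to the floor. On the deposited values Kremen1 was lower in SMiG, and Sfrp2 and Dkk3 higher, each by a log2 difference within 0.44. These differences lay inside those of the silent receptor genes, from −0.54 to 0.72 with both tails left out. Wif1, encoding another protein that binds Wnt ligands, had 5.33 in SMiG against 5.13 in C6. Sfrp5 had 4.97 in SMiG against 5.18 in C6, and Dkk4 had 5.05 in SMiG against 5.02 in C6, all close to the floor. Dkk1, Dkk2 and Sfrp1 were under the floor on each array, at 3.85 to 4.36 in SMiG and 3.57 to 4.46 in C6.

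Among the receptors, Fzd8 was higher and Fzd2 lower. Frizzled proteins are the receptors that span the membrane and take up Wnt ligands. Fzd8 had 7.32 in SMiG against 5.91 in C6, 2.67-fold higher, and 1.06% of detected genes had a higher difference. Fzd2 had 7.76 in SMiG against 8.60 in C6, 1.798-fold lower and within the 2-fold mark. Fzd1 had 6.19 in SMiG against 5.84 in C6, Fzd5 had 6.41 in SMiG against 6.25 in C6, Fzd7 had 6.89 in SMiG against 6.98 in C6, and Fzd10 had 5.63 in SMiG against 5.52 in C6. These 4 receptors lay between −0.09 and 0.35. Fzd9 was above the floor in C6 alone, at 4.74 in SMiG against 4.85 in C6. Fzd4 and Fzd6 lay under the floor on each array, at 4.06 to 4.46 in SMiG and 3.88 to 4.55 in C6. The co-receptor genes were close between the arrays, Lrp5 at 8.50 in SMiG against 8.88 in C6, and Lrp6 at 8.98 in SMiG against 8.91 in C6. Of the 9 Frizzled and co-receptor genes detected, 1 was past 2-fold, beside 9.71% of all detected genes, a share near that of genes at large.

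The ligands themselves gave signals near the floor. Of 19 Wnt genes, 9 were detected, with values from 5.003 to 5.99 in SMiG and from 4.80 to 5.55 in C6. Wnt4 had the largest difference among them, at 5.99 in SMiG against 5.55 in C6, and Wnt1 was the only one lower in SMiG, at 5.02 against 5.23 in C6. The other 7 had log2 differences from 0.06 for Wnt11 to 0.33 for Wnt9b. On the deposited values each of these 7 was thus slightly higher in SMiG. The floor too was higher there, at 4.96 against 4.84 in C6. Their differences lay inside those of the silent receptor genes, which ran from −0.54 to 0.72 with both tails left out. With a lowess trend removed, the 7 ran from −0.0019 for Wnt11 to 0.26 for Wnt9b. Whether they differ beyond an offset between the arrays at low signal was not tested. Wnt3 had 5.12 in SMiG against 4.93 in C6, Wnt5b 5.003 in SMiG against 4.80 in C6, and Wnt6 5.61 in SMiG against 5.34 in C6. Wnt7a had 5.67 in SMiG against 5.51 in C6, Wnt9a 5.55 in SMiG against 5.46 in C6, Wnt9b 5.40 in SMiG against 5.07 in C6, and Wnt11 5.28 in SMiG against 5.22 in C6. All 9 therefore lay within a difference of 0.45, and a floor set at the 99th percentile of those silent genes left none of them detected. Wnt4 missed that floor narrowly, at 5.9928 in SMiG against a floor of 5.99344. The remaining 10, Wnt2, Wnt2b, Wnt3a, Wnt5a, Wnt7b, Wnt8a, Wnt8b, Wnt10a, Wnt10b and Wnt16, had 4.03 to 4.79 in SMiG and 3.77 to 4.77 in C6. On these arrays the ligand transcripts were thus at or close to the level of silent genes, and low expression would not be told from the background there. R-spondins are secreted proteins that strengthen Wnt signals through LGR receptors. Rspo1 had 5.57 in SMiG against 5.38 in C6, and Rspo2, Rspo3 and Rspo4 had 3.37 to 4.75 in SMiG and 3.09 to 4.49 in C6, under the floor of each array.

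The genes for making ligands gave signals over the floor of each array and lay on opposite sides of 0. Wls, encoding the carrier that brings Wnt proteins to the cell surface, had 10.55 in SMiG against 9.67 in C6, 1.85-fold higher. Porcn, encoding the enzyme of the endoplasmic reticulum that attaches the lipid to Wnt proteins, had 5.89 in SMiG against 6.60 in C6, 1.64-fold lower. Neither passed 2-fold.

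The 6 genes grouped here as destruction complex and beta-catenin each stayed within 2-fold, as did 9871 of the 10932 detected genes. The scaffold gene Axin2 is grouped with the feedback genes, and Apc2, outside the member rule, was 3.41-fold higher. Ctnnb1, encoding beta-catenin, had 10.99 in SMiG against 10.42 in C6, 1.48-fold higher. The kinase genes Gsk3b, at 10.60 in SMiG against 10.42 in C6, and Gsk3a, at 8.70 in SMiG against 8.28 in C6, differed by 0.18 and 0.43. Both encode GSK3, the kinase that CHIR99021 inhibits. Csnk1a1, encoding the casein kinase that primes beta-catenin for GSK3, had 10.61 in SMiG against 10.90 in C6. Axin1, the paralog of Axin2, had 7.28 in SMiG against 7.42 in C6, and the scaffold gene Apc had 8.57 in SMiG against 8.86 in C6. Of the 6 genes, 3 lay on each side of 0. Axin2 lay at −1.34 and its paralog Axin1 at −0.14. The amount, phosphorylation and location of beta-catenin protein are not measured by these arrays. Of the Dishevelled genes, which relay the signal from the receptors to the complex, Dvl3 had 8.29 in SMiG against 7.57 in C6, 1.65-fold higher. Dvl1 had 7.11 in SMiG against 7.23 in C6, and Dvl2 had 6.54 in SMiG against 6.40 in C6.

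Genes of the pathway outside the member rule were taken from 6 lists of further components. Of 86 such genes with a probe set, 72 were detected, with 3 genes higher and 4 genes lower by 2-fold or more (9.72% past 2-fold, beside 9.71% of all detected genes), so these lists together passed 2-fold as often as genes at large. Among receptors and their ligands, Ror1, encoding a membrane receptor that binds Wnt5a, had 8.61 in SMiG against 7.03 in C6, 2.98-fold higher. Lgr4 and Lgr5, encoding the receptors of R-spondins, had differences of 0.87 and 0.89. Ndp, encoding norrin, a ligand of Fzd4 that is not a Wnt protein, had 4.06 in SMiG against 6.57 in C6, at least 3.04-fold lower. A pair of genes for secreted proteins that have been reported to hinder Wnt signals were lower, Igfbp4 with 6.27 in SMiG against 8.68 in C6 and Serpinf1 with 6.08 in SMiG against 11.33 in C6. No gene of this list or of the antagonists among the members was 2-fold higher. Apc2, a paralog of Apc found mainly in the nervous system, had 8.25 in SMiG against 6.48 in C6, 3.41-fold higher. Tle4, encoding a Groucho corepressor that binds TCF factors, had 6.11 in SMiG against 4.31 in C6, at least 2.41-fold higher. The related genes Tle1, Tle3 and Tle5 lay between 0.06 and 0.66, and Tle2 at −0.56. Nfatc2, a transcription factor gene of the calcium branch, had 4.91 in SMiG against 5.98 in C6, at least 2.02-fold lower. The genes of the planar polarity list with both signals above the floor ran from Nfatc3 at −0.43 to Prickle2 at 0.62, and the secretion list from Vps35 at −0.43 to Atp6ap2 at 0.55.

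Described Wnt targets outside the members were mixed. Of 50 with a probe set, 34 were detected, with a median difference of −0.0063, 7 lower by 2-fold or more (20.6%, beside 6.51% of all detected genes) and 1 higher by as much (2.94%, beside 3.19%). The 20.6% includes Fst, Ccn4 and Cldn1, which were above the floor in C6 alone, and such detection favours a lower difference. Fgf9, Met, Fosl1 and Plaur were lower with both signals above the floor. Of all genes of that kind, 5.34% were at least 2-fold lower. Fst, encoding follistatin, was the lowest, with 4.60 in SMiG against 7.996 in C6, at least 8.20-fold lower. Fgf9, encoding a fibroblast growth factor, had 6.005 in SMiG against 8.06 in C6, 4.15-fold lower. Ccn4, a matricellular gene named for its induction by Wnt1, had 4.56 in SMiG against 6.07 in C6, at least 2.15-fold lower. The others counted as lower were the growth factor receptor gene Met at −2.49, the AP-1 gene Fosl1 at −1.88, the urokinase receptor gene Plaur at −1.37 and the tight junction gene Cldn1, which was at least 1.60-fold lower with a SMiG value under the floor. Ephb2, encoding an ephrin receptor, was higher, with 8.60 in SMiG against 7.10 in C6, and its paralog Ephb3 stood at 0.98. Within 2-fold were the receptor gene Tnfrsf19 at −0.95, Myc at 0.93 and the cyclin gene Ccnd1 at 0.21. Most of these genes also answer to other pathways, so their values do not isolate the Wnt signal.

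**Figure D3:**
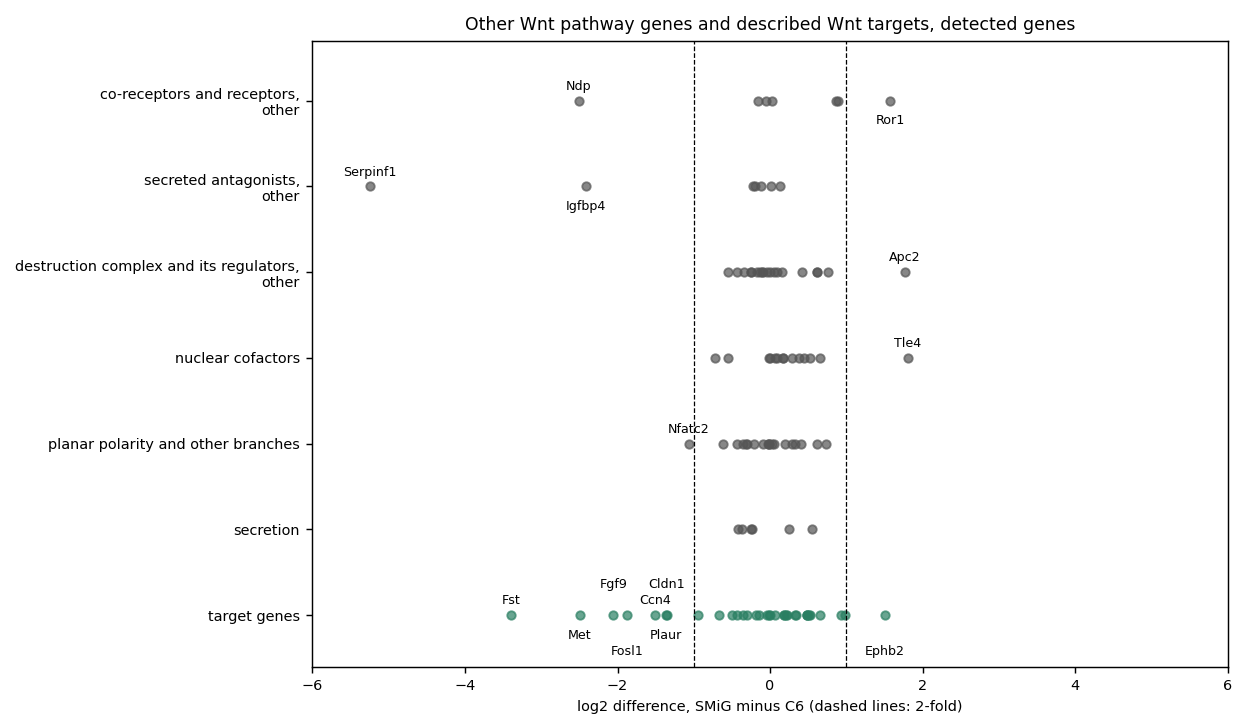
Log2 difference, SMiG minus C6, of the detected Wnt pathway genes outside the members (6 lists, grey) and of described Wnt targets (green), with genes past 2-fold named and dashed lines at 2-fold. Genes below the floor on 1 array (Ndp, Tle4, Nfatc2, Fst, Ccn4 and Cldn1) are plotted at their measured values.

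The label of the line was checked against markers. All 8 glial and glioma markers were detected, with a mean log2 level of 9.14 in SMiG against 8.67 in C6, and Vim, Sox10, S100b and Cnp were each above 9 on both arrays. Of the 8, 3 were at least 2-fold higher in SMiG, Cnp at 1.52, S100b at 1.201 and Sox10 at 1.01, beside 3.19% of all detected genes. Olig2 was the nearest to the floor, at 5.43 in SMiG against 5.08 in C6. Gfap was also low, at 5.48 in SMiG against 6.05 in C6. Of 6 microglia markers, Tmem119 was detected, and Ptprc, Aif1, Csf1r, Cx3cr1 and Itgam were under the floor on each array. Of 5 neuron markers 3 were detected. Map2 was well above the floor, at 9.01 in SMiG against 8.80 in C6, and Snap25 had 6.17 in SMiG against 5.65 in C6. Rbfox3 had 4.94 in SMiG, under the floor, against 5.12 in C6, and Tubb3 and Syt1 were below the floor on each array. Of 3 endothelial markers, Tek and Cldn5 were detected, and Cdh5 was not. Of the fibroblast and mural markers, Pdgfrb and Col1a1 were lower together with the lower Wnt genes. Of 5 measured, 3 were detected, with a mean log2 level of 4.85 in SMiG against 5.58 in C6, Pdgfrb at −2.36, Col1a1 at −1.15 and Col1a2 at −0.30 with its SMiG value under the floor, and Dcn and Lum under the floor on each array. The part of these glial and fibroblast markers in the lower Sfrp4, Nkd2 and Axin2 signals was not tested. In a bulk sample, fewer cells of a type and less RNA per cell cannot be told apart.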

How the data were processed

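Total RNA of 2 samples was converted to sense cDNA, labelled with biotin and hybridised to GeneChip arrays for whole transcripts (per the labels' protocols). The deposited table covers 36685 probe sets, with 1 value for each array. The authors' values are taken to be log2 expression, since they run up to 13.09, above 11.09, the natural log of a 16-bit scanner's maximum. Nothing used here states the log base, the background correction or the normalization. The column medians were close, 4.86 in SMiG and 4.84 in C6, and no further normalization was applied. Both medians lie near the floors of 4.96 in SMiG and 4.84 in C6, so they do not show the scale of brighter signals.

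Gene names came from the platform annotation, with 18511 probe sets of 1 symbol, 575 of several and 17599 of none. One further probe set, shared by Lrp5 and Tvp23b, was left out, as were all with several symbols. Probe sets of a gene were averaged. All 64 symbols were the same in RefSeq (GRCr8). A gene at or below the floor on the dimmer array has its fold against that floor, given as "at least". Calls used a log2 difference of 1 on measured values, and no test was run. Alternatives were the floor's percentile, no floor, centring, a lowess trend (span 0.3), quantile normalization, the brightest or each probe set, values raised to the floor, and thresholds of 1.5-fold and 3-fold. The procedure was tested on simulated data, with changes larger than the threshold added to genes well above the floor and noise set to the SD of the silent genes. Changes close to the threshold or near the floor, and variation between cultures, were not simulated. Members, lists and naming rule were chosen with earlier results of these data known. Each detected member is named, and from the other lists each gene past 2-fold, or else the extremes. Lgr4, Lgr5, Tle1, Tle2, Tle3, Tle5, Nfatc3, Prickle2, Ephb3, Tnfrsf19, Myc and Ccnd1 were named after their values were seen. The number of arrays limits the precision. The tools were matplotlib 3.10.9, statsmodels 0.14.6, pandas 2.3.3 and numpy 2.4.6 under Python 3.11.15.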

Additional observations from a re-analysis of the deposited data

How the results depend on the processing

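Sfrp4, Nkd2, Lef1, Axin2 and Tcf7 stayed at least 2-fold lower, and Fzd8 and Tcf7l2 at least 2-fold higher, under each floor and scaling alternative. The probe set alternatives could not change the value of any member, since each has 1 probe set. Notum dropped out at the floor at the 99th percentile and with values raised to the floor, where it was at −0.79. That stricter floor left 27 Wnt genes detected and turned their median to −0.093, against 0.086 at the floor used. It removed all ligands, Wnt4 by a narrow margin, so statements on ligands rest on signals near the floor. The fold threshold moved the counts by construction. At 1.5-fold, 5 Wnt genes were higher, with Dvl3, Tcf7l1 and Wls added, and 8 lower, with Fzd2 and Porcn added, beside 1140 higher and 1649 lower among all genes, 13 target genes and 17 other pathway genes past it. At 3-fold, no Wnt gene (0) was higher and 3 were lower, Sfrp4, Nkd2 and Lef1, beside 80 higher and 274 lower among all genes and 4 target genes past it. Of the single gene values, 353 moved by less than the SD of the silent genes and 7 by more, all 7 of genes below the floor on 1 array, and none changed sign among those past 2-fold. The 353 include the probe set alternatives, under which genes with 1 probe set could not move. No paired analysis was possible because each group has 1 array.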

Other observations

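Some probe sets carry exactly the same deposited value on both arrays. This holds for 1011 of 36685 probe sets (2.76%) and for 83 detected genes. Among the Wnt genes they are Dkk1 at 3.85, Wnt2 at 4.77 and Nkd1 at 5.07. The difference of 0 given for Nkd1 is therefore an exact identity of the 2 deposited values, and its cause was not tested. The 1 probe set shared by Lrp5 and another gene had 5.06 in SMiG against 5.23 in C6.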
